A study of Bos taurus with 8 samples.

Results

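The change across calving in diet M was measured on 2 of the 8 2-colour arrays of the study. Each of the 2 held both days of 1 Holstein cow, cow 7821 or cow 7973, and was chosen because its title pairs day 7 after calving with day -14 before it in diet M. The RNA came from blood polymorphonuclear leukocytes (PMNL), a cell fraction made up mainly of neutrophils. Cow 7821 had its day 7 RNA in the red dye Cy5 and cow 7973 in the green dye Cy3, so the dyes were exchanged between the cows. All 8 cows of the study were fed 1 of a pair of diets during a dry period of 45 days, a straw-rich one of 1.34 Mcal/kg meant to cover at least 100% of the energy requirement or a corn silage one of 1.62 Mcal/kg that exceeded 140% of it. The labels do not say which of them is M and which is S. The 2 arrays that pair the same days in diet S serve as the comparison, but each of those set a day 7 sample of 1 cow against a day -14 sample of another cow. The other 4 arrays pair diet M with diet S at 1 day and carry the other 2 cows of diet M.

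Neutrophils are short-lived phagocytes that leave the marrow, circulate briefly and enter tissues such as the udder and uterus, where they kill bacteria with granule proteins and reactive oxygen. Around calving a cow's blood cortisol and oestrogen surge, the marrow releases cells, and milk production draws on body fat, so that free fatty acids and ketone bodies circulate. Interferons induce antiviral genes in most cell types, granulocytes included. The comparison asked how the PMNL transcriptome of the same animal differed between the 2 sides of calving.

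Values are log2 ratios of day 7 over day -14, each array corrected by loess for brightness, with the deposited ratio read as Cy5 over Cy3. Neither the labels nor the files state that order. On the other reading every sign below turns over, while sizes, errors, counts and p-values stay. The array of cow 7821 gave a value for 31713 of 43803 features and that of cow 7973 for 28173, and 24706 had one on both. Features with a value on all 8 arrays gave 13080 rows, 8503 of them with a gene symbol. The value of 1 cow includes any preference of a gene for 1 dye, which cancels only in the mean of the 2 cows. S100A8, S100A9 and LTF of neutrophils had a value on all 8 arrays, but so did CD3D, CD3E and CD3G of T cells. CD79A and MS4A1 of B cells had one too. A value alone does not show that a transcript was present, since all 13080 rows had one. Median brightness was 9919 for S100A8 and 13840 for S100A9, but 40.12 for LTF. The T and B cell genes lay between 94.15 (CD3G) and 803.5 (CD79A). CXCR2 and MPO had values on 7 arrays, and no feature bears the symbol CSF3R. RNA of a mixture cannot tell fewer cells of a type from less RNA per cell, and this holds for every group below.

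The 2 cows shared few large changes. Across the 13080 rows, 22% were positive in both cows, 25.6% negative in both and 52.4% opposite. The values of the 2 cows had a correlation of -0.05 over rows, which are not independent replicates. A size of at least 1 on the log2 scale in both cows was reached by 86 rows on the positive side (0.657%), 38 on the negative side (0.291%) and 130 with opposite signs (0.994%). A large part of these were dim. Among the 6010 symbols whose median brightness was 64 or more, 19 were positive (0.316%), 10 negative (0.166%) and 10 opposite (0.166%). Shared strong values thus outnumbered opposite ones there, which was not so over all rows. The minimum of 64 was chosen after values were seen, and the correlation of the cows over these symbols was -0.03. The SD over rows was 0.58 for cow 7821 and 0.76 for cow 7973, against 0.68 to 1.49 on the other 6 arrays.

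**Figure D1:**
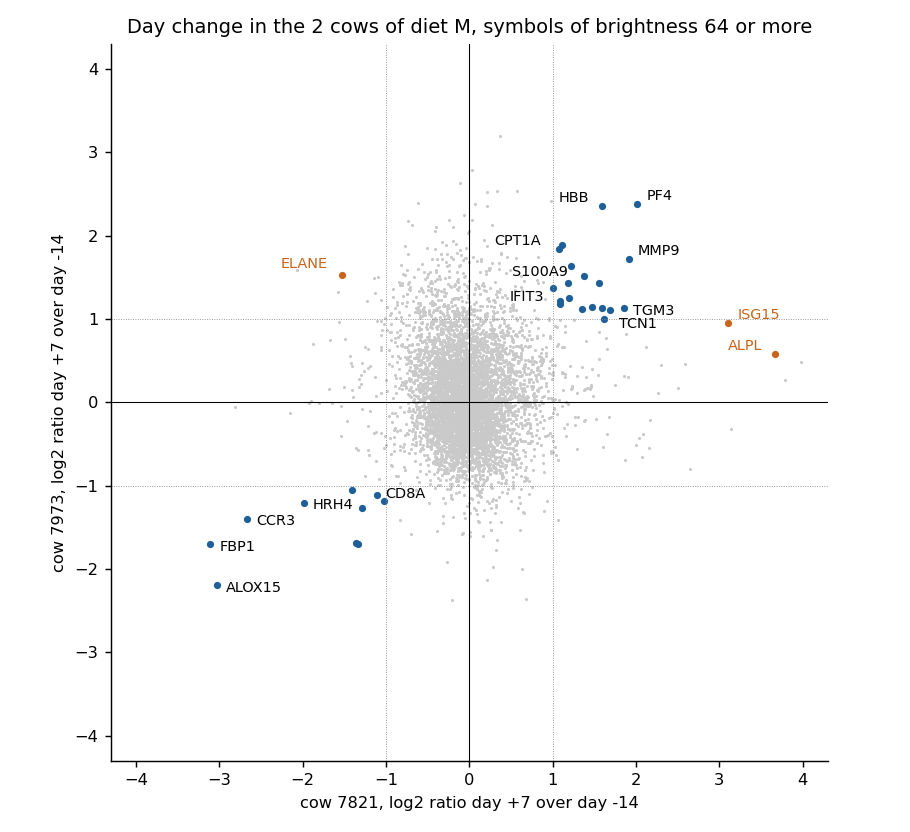
Each point is 1 of the 6010 gene symbols whose median brightness was 64 or more, at its log2 ratio of day 7 over day -14 in cow 7821 (x axis) and cow 7973 (y axis); dotted lines mark a size of 1. The 29 blue points are at least 1 in size with the same sign in both cows (19 positive, 10 negative), and the 3 orange points are genes that were large in 1 cow or opposite between the cows.

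No gene passed the test. Limma, with a term for each of the 4 pairings and for dye over all 8 arrays, called 0 of 13080 rows at an adjusted p under 0.05 (0%), with a smallest adjusted p of 1.00. Without adjustment, 237 rows (1.81%) had a p under 0.05, of which 163 were positive and 74 negative. The median standard error (SE) of the mean of the 2 cows was 0.42. Below, a mean (n = 2 cows) is given ± the SE of that gene in the fit. Every adjusted p is 1.00 in limma unless another is given, and the values describe these 2 cows only. The SE and p rest on the residual spread of all 8 arrays, most of which pair different cows, not on the 2 cows alone. The arrays hold 1 hybridisation per sample.

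Interferon-stimulated effector genes, the antiviral proteins made in response to interferon, were nearly all positive. Of 44 genes, 38 had a feature and 33 a value on all 8 arrays. The mean of the cows was positive for 32 of the 33, and 26 were positive in both cows, against 22% of all rows. None was negative in both. The list median was 0.96 in cow 7821 and 0.45 in cow 7973, where the median of all rows was -0.03 and -0.01. None of the 33 passed the test, and 9 had an unadjusted p under 0.05, against 1.81% of all rows.

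ISG15, a ubiquitin-like modifier, was at 3.11 in cow 7821 and 0.95 in cow 7973, a mean of 2.03 ± 0.66. Its 2 features lay between 2.96 and 3.26 in the first cow and between 0.78 and 1.13 in the second. HERC6, the ligase that attaches ISG15 in mice, was at 1.35 and 1.12 (1.24 ± 0.32, limma unadjusted p = 0.00681). Thus HERC6 differed little between the cows, while ISG15 was far higher in cow 7821.

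IFIT3, which binds foreign RNA together with its relatives, was at 1.18 in cow 7821 and 1.44 in cow 7973 (1.31 ± 0.52). IFIT5 of the same family was at 1.15 and 0.85. ISG20, an exonuclease, was at 0.96 and 0.99 (0.97 ± 0.33). OAS1Y, which makes the signal that switches on RNA decay, was at 2.12 and 0.67, and DTX3L, a ligase of the same response, at 1.51 and 0.90. All 5 were positive in both cows as means over their features. DTX3L was dim, with a brightness of 32.37, and its 3 features lay between -0.69 and 3.11 in cow 7973. The exceptions were RSAD2, the antiviral protein viperin, at 2.97 in cow 7821 and -2.37 in cow 7973, and IFI27 at 0.94 and -1.19. RSAD2 has 1 feature with a brightness of 48.75, and was singled out after its values were seen.

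Receptors and signal carriers of interferon were on the same side. Of 19 measured members of the list of interferon receptors, Janus kinases, STATs and IRFs, 17 had a positive mean and 14 were positive in both cows, with list medians of 0.45 and 0.46. IFNGR1, a chain of the receptor for interferon gamma, was at 0.49 and 1.14, IRF9, the DNA-binding part of the type I interferon complex, at 0.28 and 1.10, and the feedback inhibitor SOCS3 at 1.73 and 0.79. SOCS3 was dim (brightness 11.78).

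On the arrays of diet S both interferon lists lay below 0. The effectors had medians of -0.28 and -0.72 and the receptor list of -0.07 and -1.06. ISG15 was at -1.21 and -1.15 there, IFIT3 at -0.97 and -1.87 and ISG20 at -1.46 and -1.77, so for these 3 genes both arrays of diet M lay above both of diet S. That held for 25 of the 33 measured effectors, against 16.6% of all rows. OAS1Y went against this, with 2.45 on 1 array of diet S and -0.29 on the other. The test of the difference between diets called 0 of 13080 rows (0%). For ISG20 it was 2.59 ± 0.47 with an adjusted p of 0.945 in limma.

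**Figure D2:**
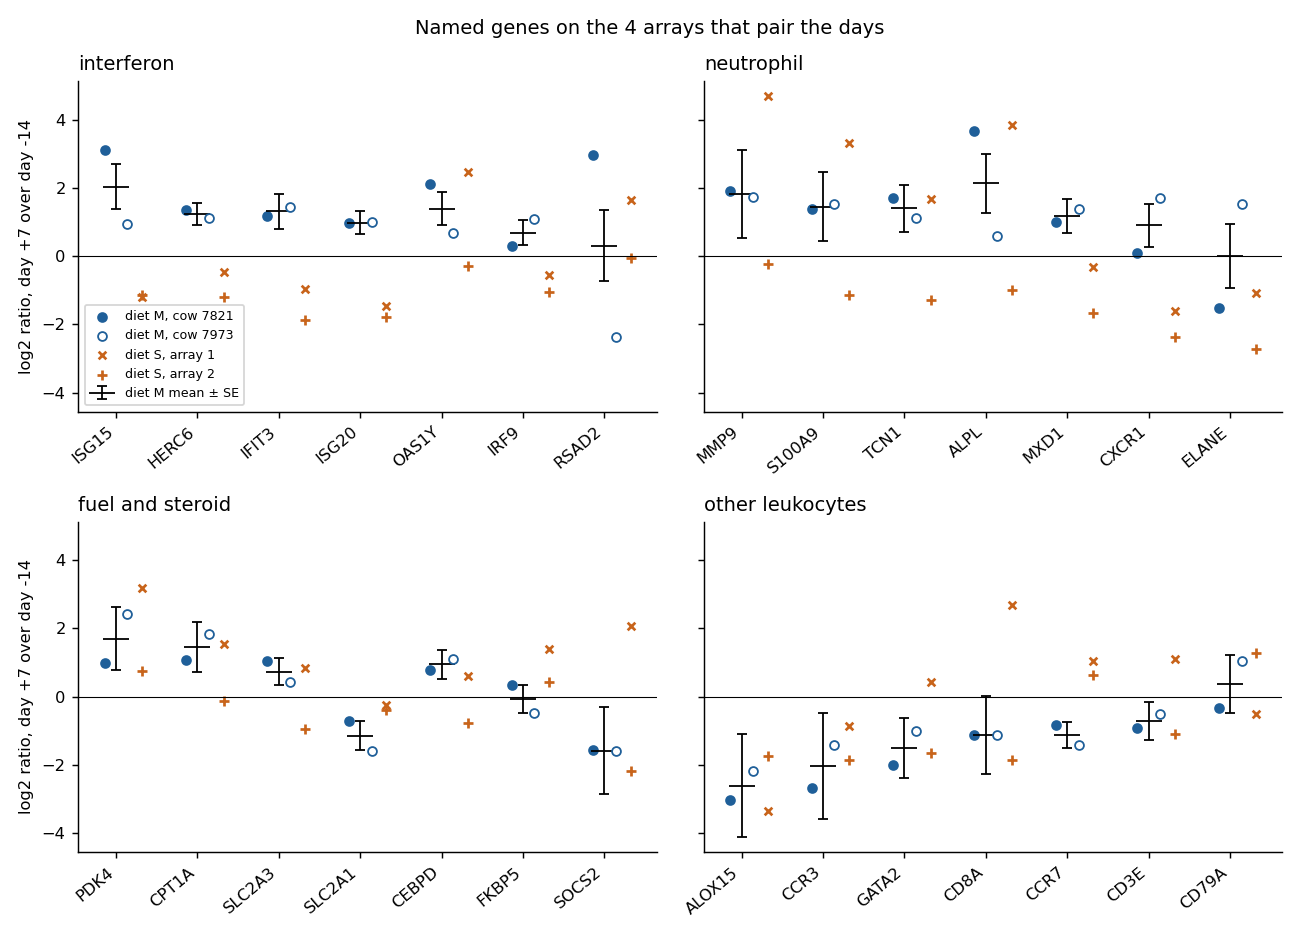
Each panel gives log2 ratios of day 7 over day -14 (y axis) for 7 genes: blue filled and open circles are the 2 cows of diet M, black bars their mean ± SE of the fit, orange crosses and plus signs the 2 arrays of diet S. ISG15, HERC6, IFIT3, ISG20 and IRF9 lie above 0 in both cows of diet M and below 0 on both arrays of diet S, while RSAD2 and ELANE have opposite signs in the cows.

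Neutrophil genes were mostly positive. Of 17 measured granule protein genes, out of 29 in the list, 15 had a positive mean and 11 were positive in both cows, with medians of 0.89 and 0.50. Of 12 measured genes of the neutrophil surface and maturity list, 11 had a positive mean and 7 were positive in both cows, with medians of 0.69 and 1.12. None of these genes passed the test.

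MMP9, the gelatinase of the tertiary granules, was at 1.91 in cow 7821 and 1.73 in cow 7973, a mean of 1.82 ± 1.29. TCN1, the vitamin B12 carrier of the specific granules, was at 1.69 and 1.11 (1.40 ± 0.69). LTF, the iron-binding lactoferrin of the same granules, was at 2.09 and 0.29. These 3 were positive in both cows, and the value of LTF was larger on the array of cow 7821. Such an order may hold a dye effect. With the dye effect taken from the arrays left, LTF was at 0.19 without the array of cow 7973. It was at 2.19 without that of cow 7821, which is the reverse order.

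Haptoglobin, HP, was at 0.58 and 2.54, the reverse order, with 3 features between 2.30 and 2.84 in cow 7973. The cathelicidins CATHL1 and CATHL2, precursors of antimicrobial peptides, were at 1.44 and 0.41 and at 2.38 and 0.50. LTF, CATHL1 and CATHL2 were dim, with brightness values of 40.12, 46.22 and 43. ELANE, the elastase of primary granules that is transcribed in early marrow cells, was at -1.52 and 1.53, with a mean of 0.00 ± 0.94. MPO of the same granules had values of -2.51 and -3.21, from features with no value on 1 of the other arrays, so it did not enter the test. The granule list was thus not uniform: MMP9, TCN1 and LTF were positive in both cows, ELANE was opposite and MPO negative in both. Without the array of cow 7973, and with the dye effect taken from the arrays left, the list median was -0.49. In diet S the same genes ran far apart, with CATHL2 at 9.12 on 1 array and -1.05 on the other and MMP9 at 4.69 and -0.23.

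The calgranulins S100A8 and S100A9, calcium-binding proteins that fill the neutrophil cytosol, were at 1.42 and 0.18 and at 1.38 and 1.52. S100A12 was at 1.02 and 0.04. S100A9 was therefore high on both arrays, its partner S100A8 only slightly above 0 on that of cow 7973. This order too was reversed with the dye effect taken from other arrays. S100A8 was then at 1.055 without the array of cow 7821 and at 0.54 without that of cow 7973.

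Among surface and maturity genes, ALPL, the alkaline phosphatase of mature neutrophils, was at 3.67 in cow 7821 and 0.59 in cow 7973 (2.13 ± 0.86). PROK2, a secreted chemoattractant, was at 2.40 and 0.73, and MXD1, a transcription factor of terminal maturation, at 1.01 and 1.37 (1.19 ± 0.50). These 3 were positive in both cows and had unadjusted p-values of 0.0434, 0.0572 and 0.0497 in limma. The chemokine receptor CXCR1 was at 0.09 and 1.70, VNN2 at 0.17 and 1.35, and the Fc receptor FCGR3A at 0.65 and 0.98. CXCR2, measured outside the test, was at -0.25 and 2.22. NAMPT, which makes NAD, was opposite, at 0.74 and -1.27. PROK2 and NAMPT were dim, with brightness values of 26.55 and 27.06.

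Receptors for adhesion and chemoattractants had positive means in 14 of 15 measured genes, 9 of them positive in both cows, with medians of 0.21 and 0.78. The integrin chains ITGAM and ITGB2, which form the complement receptor CR3, were at 0.25 and 0.61 and at -0.14 and 0.78. ITGAM was dim (brightness 36.7). C5AR1, the receptor for complement fragment C5a, was at 0.27 and 2.13. The larger values of this list were thus those of cow 7973, and without its array the list median over the means, 0.43, was -0.52. Its array also scattered more between features of 1 gene: over the 3276 genes of brightness 64 or more with several features, the within-gene SD was 0.45 in cow 7973 and 0.23 in cow 7821. ITGB2 had 6 features between -0.11 and 1.93 in cow 7973 and between -0.50 and 0.19 in cow 7821.

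Pattern receptors and cytokines had smaller values. TLR2 was at 0.20 and 0.52 and TLR4 at -0.07 and 0.15, both sensors of bacterial products. IL1B was at 0.10 and 0.89 and CXCL8 at 1.07 and 0.03. The list of pattern receptors, NF-kB and inflammasome had 24 of 31 means above 0, 14 positive in both cows, and medians of 0.03 and 0.52; its median over the means was -0.077 with the values as deposited. Cytokines and chemokines had medians of opposite sign, -0.04 and 0.61.

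**Figure D3:**
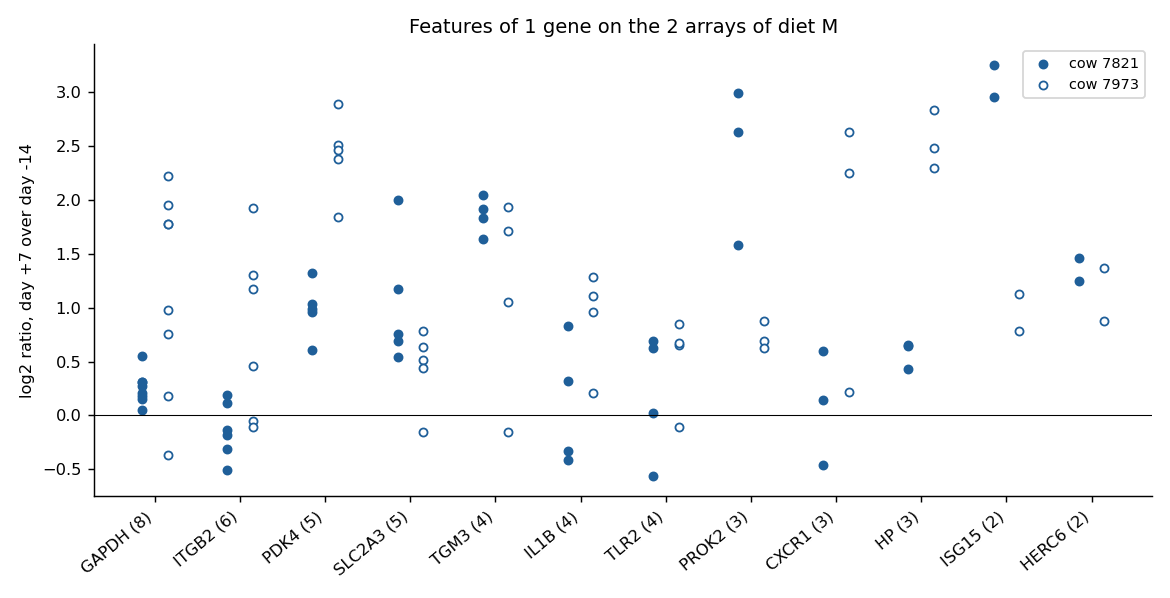
Each point is 1 array feature at its log2 ratio of day 7 over day -14 (y axis), filled for cow 7821 and open for cow 7973, for 12 genes with 2 to 8 features used (number in brackets). The 5 features of PDK4 are above 0 in both cows, and the 8 features of GAPDH and the 6 of ITGB2 spread wider in cow 7973.

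PDK4 and CPT1A, genes that steer cells from glucose to fat, were positive in both cows. PDK4, the kinase that shuts off pyruvate dehydrogenase, was at 0.98 in cow 7821 and 2.42 in cow 7973, a mean of 1.70 ± 0.92. Its 5 features lay between 0.61 and 1.32 in the first cow and between 1.84 and 2.89 in the second, so they did not overlap between the cows. CPT1A, which admits fatty acids to mitochondria, was at 1.08 and 1.84 (1.46 ± 0.73). Both genes were above 0 in both cows by every feature used. PDK4 was at 3.19 and 0.75 in diet S and CPT1A at 1.55 and -0.12.

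The rest of the pathway did not share a direction. Of the 27 measured genes of fatty acid oxidation and PPAR targets, 14 had a positive and 13 a negative mean, 17 were opposite between the cows, and the medians were -0.07 and 0.31. FABP3, a fatty acid carrier, was at -0.75 and -0.36, and the mitochondrial carrier UCP2 at -0.27 and 1.89. Ketone body genes had medians of -0.14 and 0.08 over 6 measured members.

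Glucose transporters were split. SLC2A1 was at -0.70 and -1.58 (-1.14 ± 0.42, limma unadjusted p = 0.0316), whereas SLC2A3, the high-affinity form of leukocytes and neurons, was at 1.03 and 0.45. FOXO3, a transcription factor held inactive by insulin, was at 0.25 and 1.89, with a brightness of 59.87. Glycolysis and hypoxia genes had medians of -0.21 and 0.48, opposite between the cows. The glycolytic enzyme ALDOA was at 0.07 and 1.36, and GAPDH at 0.26 and 1.16 over 8 features that ranged from 0.05 to 0.56 in cow 7821 and from -0.37 to 2.22 in cow 7973.

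ABCA1, the pump that moves cholesterol out of cells, was at 3.50 and 1.69 (2.60 ± 0.65, limma unadjusted p = 0.00548) from 1 dim feature (brightness 20.14). The list of LXR and cholesterol efflux genes, to which it belongs, had medians of -0.13 and 0.55. Sterol and fatty acid synthesis had 17 of 22 negative means and 9 negative in both cows, but its medians were 0.09 and -0.63. Lanosterol synthase, LSS, was at -0.47 and -0.97 and ACLY, which makes acetyl-CoA from citrate, at -0.33 and -0.59.

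Eosinophil-linked genes had some of the lowest values. ALOX15, the lipoxygenase of eosinophils and airway epithelium, was at -3.02 in cow 7821 and -2.19 in cow 7973, a mean of -2.60 ± 1.51. CCR3, the eotaxin receptor, was at -2.67 and -1.40 (-2.03 ± 1.56), and GATA2, a transcription factor of eosinophil, basophil and mast cell precursors, at -1.99 and -1.01 (-1.50 ± 0.87). HRH4, a histamine receptor of eosinophils and mast cells that is not in the list, was at -1.98 and -1.21. These 4 were below -1 in both cows. GATA2 was just under the brightness of 64, at 63.69.

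Of 15 eosinophil and basophil markers, 10 had a feature and 5 a value on all 8 arrays. CEBPE, which eosinophils share with maturing neutrophils, was at -1.90 and 0.02, and FCER1A, the IgE receptor chain, at -0.12 and -0.35. FCER1A was dim (brightness 35.15). The medians over the 5 were -1.99 and -1.01. In diet S they were 0.44 and -1.73, with ALOX15 at -3.35 and -1.73 and CCR3 at -0.85 and -1.84. ALOX15, CCR3 and HRH4 were therefore negative on all 4 arrays that pair the days. None of them passed the test. Without the array of cow 7821 CCR3 was at 1.13, GATA2 at 0.30, HRH4 at 0.06 and ALOX15 at -0.43. The list median was then 0.89. That fit joined the values of cow 7973 with a dye effect taken from arrays of other cows. In cow 7973 itself CCR3 was at -1.40, GATA2 at -1.01, HRH4 at -1.21 and ALOX15 at -2.19.

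T cell and NK markers had negative means in 24 of 25 measured genes, out of 37 in the list. Of these, 14 were negative in both cows, against 25.6% of all rows, and none was positive in both. The median was -1.06 in cow 7821 and -0.10 in cow 7973, so the size lay in 1 cow. CD8A, the coreceptor of cytotoxic T cells, was at -1.11 in both cows (mean -1.11 ± 1.14). CCR7, the lymph node homing receptor, was at -0.83 and -1.42 (-1.12 ± 0.39, limma unadjusted p = 0.0242), and the cytokine receptor IL7R at -1.06 and -1.19. These 3 had like values in both cows.

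Other T cell genes were lower in cow 7821 than in cow 7973. LEF1, a transcription factor of naive T cells, was at -2.15 and -0.12, the receptor kinase ZAP70 at -1.18 and -0.10 and CD7 at -1.22 and -0.29. The chains of the T cell receptor complex CD3D, CD3E and CD3G were at -0.77 and 0.26, -0.91 and -0.50, and -1.41 and 0.14. The cytotoxic enzyme GZMB was at -1.25 and -0.88. CD4 was at -0.03 and 0.47, the single positive mean of the list. CD96, a receptor of T and NK cells outside the list, was at -1.02 and -1.18. Without the array of cow 7821 CD8A was at 0.04, CD3D at 0.71, CD3G at 0.47 and GZMB at 0.14, while CCR7 was at -1.53. The list median was 0.14.

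B cell markers gave 8 negative and 6 positive means of 14, with medians of -0.23 and -0.03. CD79A was at -0.32 and 1.06, MS4A1 (CD20) at -0.20 and 0.61, and JCHAIN, which joins the antibodies of plasma cells, at -1.80 and -0.01. Of the 14, 6 were negative in both cows, 1 was positive in both and 7 were opposite.

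Markers of monocytes, platelets and red cells were measured too, and some were among the highest values. Of 12 measured monocyte markers all had a positive mean and 8 were positive in both cows, with medians of 0.54 and 0.27, and -0.38 without the array of cow 7973. The complement genes C1QA and C1QB were at 1.20 and 1.25 and at 1.41 and 0.31, and CD68 at 0.65 and 1.46. The monocyte genes CD14, at 0.19 and 0.11, and CSF1R, at 0.09 and 0.01, were close to 0. Of 4 measured platelet markers, 3 were positive in both cows, PF4 at 2.02 and 2.38 (2.20 ± 1.15), MPIG6B at 2.46 and 1.41 and the integrin ITGA2B at 0.31 and 1.44. MPIG6B was dim (brightness 48.45). HBB, a haemoglobin chain, was at 1.59 and 2.36, but HBA, its partner chain, at 0.25 and -0.74. The other red cell markers were CA2, at -0.39 and -0.95, and AHSP, whose features were negative in cow 7821 and positive in cow 7973. Over the 4 measured red cell markers the medians were -0.07 and 0.0004. Without the array of cow 7973 the estimate was 0.01 for C1QA, 0.77 for PF4 and -0.08 for HBB. The part of these other cells in the neutrophil, eosinophil and interferon values was not tested.

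**Figure D4:**
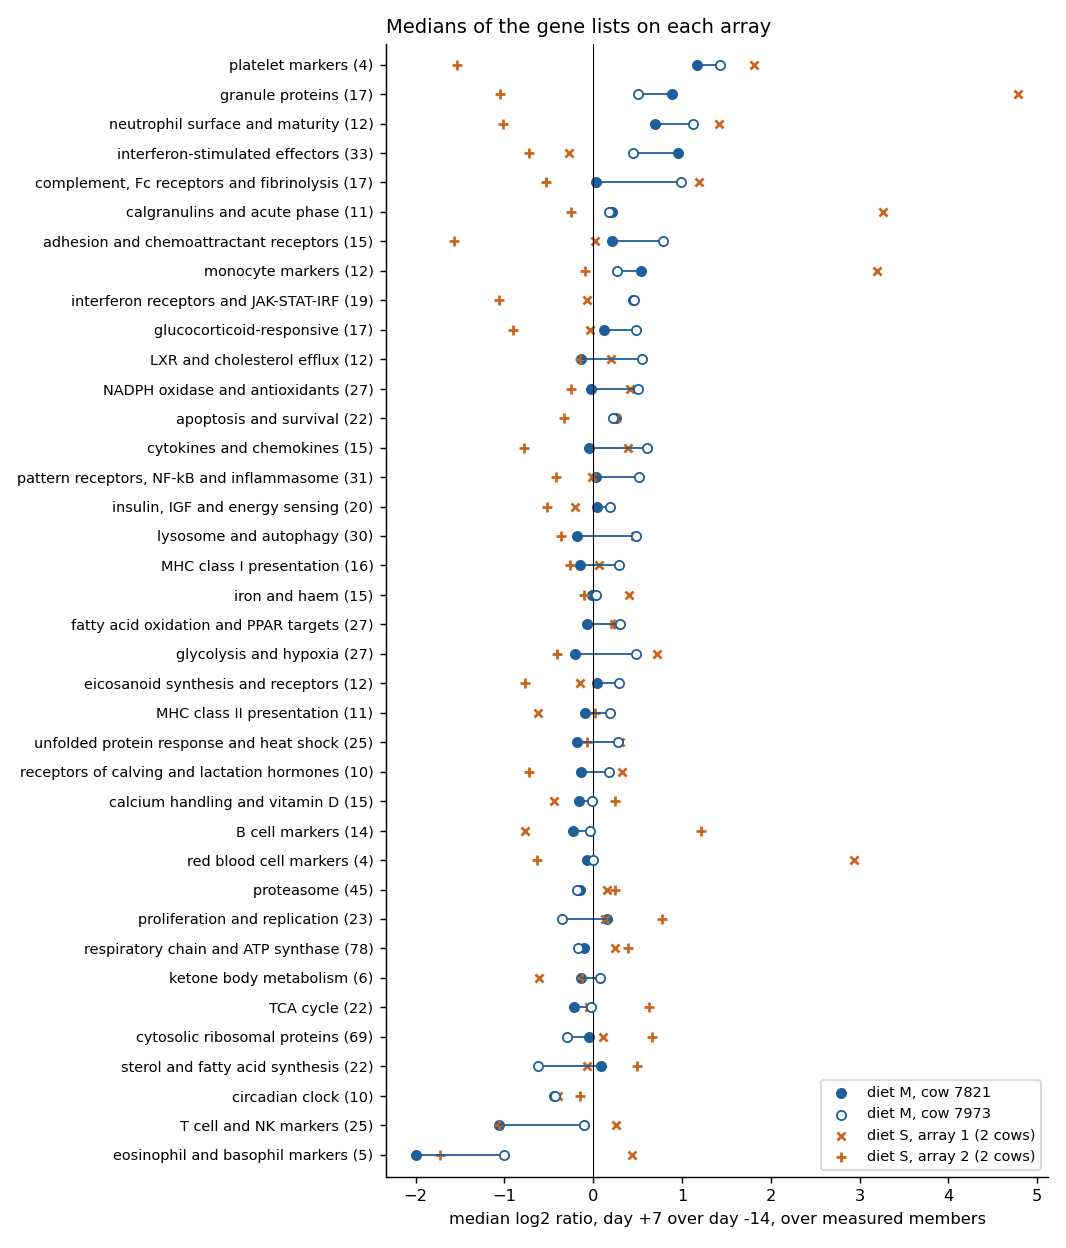
Each line is 1 of the 38 gene lists, ordered by the median of the cows' means, with the number of measured members in brackets; the x axis is the median log2 ratio of day 7 over day -14. Blue filled and open circles are cows 7821 and 7973 of diet M, orange crosses and plus signs the 2 arrays of diet S. Platelet, granule, neutrophil surface and interferon lists lie to the right of 0 in both cows, T cell and eosinophil lists to the left.

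Genes under glucocorticoid and hormone control gave mixed values. Of 17 measured glucocorticoid-responsive genes, 12 had a positive mean and 8 were positive in both cows, with medians of 0.12 and 0.48. CEBPD was at 0.78 and 1.11 (0.94 ± 0.43) and TSC22D3, which encodes the anti-inflammatory protein GILZ, at 0.19 and 0.80. FKBP5, a chaperone partner of the receptor and a common marker of steroid exposure, was at 0.35 and -0.48. The receptor gene NR3C1 was at -0.10 and -0.27. The markers of steroid exposure thus did not share a direction. The list median over the means, 0.36, was -0.33 without the array of cow 7973 and 1.12 without that of cow 7821.

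SOCS2, a feedback inhibitor of growth hormone and prolactin signalling, was at -1.57 and -1.59 (-1.58 ± 1.26). It was just under the brightness of 64, at 57.11. In diet S it was at 2.08 and -2.19, and without the array of cow 7821 it was at 0.94. Among the 10 measured receptors of calving and lactation hormones, 5 means were positive and 5 negative.

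Clock genes were negative in both cows for 6 of 10 measured members, with medians of -0.44 and -0.43. The repressor CRY1 was at -0.74 and -0.43 and BHLHE40, a repressor of the same loop, at -0.67 and -0.43. RORA was at -1.17 and -1.23 and NR1D2 at -0.80 and -0.81, receptors that act in opposite directions on the clock. NFIL3, which is also a regulator of leukocyte development, was at 1.19 and 1.39 (1.29 ± 0.64). RORA, NR1D2, CRY1 and NFIL3 were dim, with brightness values of 33.63, 10.43, 43.54 and 39.8. In diet S RORA was at 2.67 and -0.15 and NR1D2 at -0.58 and 2.64, with list medians of -0.40 and -0.14. The hour of blood sampling is not given in the sources used here.

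Leukotriene genes were split by step. ALOX5AP, which presents arachidonic acid to the 5-lipoxygenase, was at 1.20 and 0.44, and LTC4S, which makes cysteinyl leukotrienes, at 1.83 and 1.29. LTC4S was dim (brightness 24.31). LTA4H, which makes leukotriene B4, was at -0.67 and -1.11 (-0.89 ± 0.47). The whole eicosanoid list had 6 positive and 6 negative means.

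Large housekeeping lists lay slightly below 0 in both cows. Cytosolic ribosomal proteins had medians of -0.04 and -0.29 with 56 of 69 means negative, respiratory chain and ATP synthase -0.11 and -0.17 with 60 of 78, and proteasome -0.14 and -0.18 with 31 of 45. In diet S the same lists lay above 0 on both arrays, at 0.11 and 0.67, 0.24 and 0.39, and 0.15 and 0.25. With each array centred on its median in place of loess, the medians of the cows' means of these 3 lists were 0.06, 0.017 and -0.0046, so that the first 2 changed sign. The medians of cows 7821 and 7973 were then 0.142 and -0.0321, -0.084 and 0.0835, and -0.125 and 0.0944. In that setting none of the 3 lists lay below 0 in both cows.

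Of the 38 lists, 14 had positive medians in both cows, 9 negative medians in both and 15 medians of opposite sign. The opposite ones included NADPH oxidase and antioxidants (-0.03 and 0.50), lysosome and autophagy (-0.19 and 0.49), MHC class I (-0.15 and 0.29) and class II presentation (-0.10 and 0.19), and proliferation and replication (0.15 and -0.36). For these functions the 2 cows of diet M did not share a direction.

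The 29 brighter genes that were at least 1 in size in both cows were singled out after their values were seen. Beside those above, the positive ones included G0S2, an inhibitor of fat breakdown, at 1.55 and 1.43, the transglutaminase TGM3 at 1.86 and 1.14 (1.50 ± 0.41), cytidine deaminase, CDA, at 1.23 and 1.64, the stress protein NUPR1 at 1.59 and 1.14 and GNG11, a G protein chain found in platelets, at 1.12 and 1.88. The negative ones included FBP1, an enzyme of gluconeogenesis, at -3.11 and -1.70, CUL4A, a ligase scaffold, at -1.35 and -1.69, ASMT at -1.34 and -1.69 and VSTM2L at -1.29 and -1.26. The 4 features of TGM3 lay between 1.64 and 2.04 in cow 7821 and between -0.15 and 1.93 in cow 7973. Several of these estimates moved when 1 array was left out, which also takes the dye effect from arrays of other cows. Without the array of cow 7973, G0S2 was at 0.24, CDA at 0.15, NUPR1 at 0.44 and GNG11 at -0.36. Without that of cow 7821, FBP1 was at -0.16. TGM3 moved less, to 1.29 without the array of cow 7821 and 1.71 without that of cow 7973. Of the 115 genes named here, 86 moved by over 1.5 times when 1 of the 2 arrays was left out.

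A second estimate of the same change came from the 6 other arrays, as the day change of diet S plus the diet difference at day 7 minus that at day -14. It shares no sample with the 2 arrays. It rests on the other 2 cows of diet M and also on the cows of diet S. The arrays that pair the days in diet S set different cows against each other, so differences between those animals do not cancel in it. Of the 29 genes, 21 (72.4%) had the same sign in this estimate, against 52.0% of the 6010 brighter symbols. The 29 were picked by size and the 6010 were not, so these shares are not matched for size. The day change of diet S, a part of this estimate, had the same sign for 18 of the 29. CPT1A was at 1.53 ± 1.27, PDK4 at 4.25 ± 1.60, C1QA at 3.33 ± 1.01 and HBB at 3.02 ± 2.83 in this estimate. ALOX15 was at -1.65 ± 2.61 and HRH4 at -1.41 ± 1.51. The opposite sign was found for CCR3 (1.82 ± 2.7), CD8A (1.04 ± 1.98), TGM3 (-1.94 ± 0.71), G0S2 (-1.11 ± 1.38) and IFIT3 (-0.52 ± 0.90). Several of these values were smaller than their SE, so their signs are poorly determined. Of the other interferon genes named above as positive in both cows, ISG15 (-0.26), IFIT5 (-0.30), ISG20 (-0.47) and IFNGR1 (-0.51) were negative there. HERC6 (0.62), OAS1Y (2.08), DTX3L (0.16), IRF9 (0.40) and SOCS3 (0.69) stayed positive. The median of the interferon effectors was 0.24, that of the interferon receptor list -0.0049 and that of T cell and NK markers -0.00 there. The clock median was 0.32, with RORA (0.475 ± 1.54) and NR1D2 (0.97 ± 1.15) positive but smaller than their SE. CRY1 (-0.80), BHLHE40 (-0.62) and NFIL3 (1.26) kept their sign.

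TGM3 had the smallest p of all symbols in the difference between the diets. It was at -2.99 and -2.41 in diet S, a difference of 4.20 ± 0.58 (limma adjusted p = 0.945). Past an unadjusted p of 0.05 there were 546 rows (4.17%). Other symbols with small p were CPB2, PLEKHG5, ISG20, UBE2G1 and CRH. The median SE of a difference was 0.59, and the diet S arrays compare different cows, so that differences between animals enter that side only.

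The genes with the smallest p for the calving change in diet M itself were nearly all dim. ZFP1 was at -2.24 and -1.55 (-1.89 ± 0.34, limma unadjusted p = 0.000976), ZBTB7B at 3.03 and 1.24, PLEKHG5 at 3.20 and 1.12, and the transcription factor STAT6 at 2.47 and 1.47, all with a brightness under 12. OLIG1, AFMID, CRH and TMIGD3 had brightness values from 5.29 to 14.5. The uncharacterised LOC618087, at 2.58 and 5.14, had a brightness of 1.86. DLGAP3 and the receptor TNFRSF18 were named for their size in both cows and are not among these 10. DLGAP3, at 2.85 and 2.46, had a brightness of 3.08, and TNFRSF18, at 1.79 and 2.07, of 9.62. The xenobiotic receptor AHR was the brightest of the 10 with the smallest p, at 38.67, with values of -1.33 and -2.22 from 2 features that differed by over 1 in each cow.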

How the data were processed

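Per the labels' protocols, 200 ng of PMNL RNA per sample (mean RNA integrity number 7.7) was put on bovine 2-colour Agilent arrays, with Cy3 on 1 sample and Cy5 on the other. The deposited values are log2 ratios of 43803 features on each of 8 arrays; no scanner, background correction or slide is named in the sources used here. They were not normalised: column medians ran from -0.37 to 0.40, and 97.8 to 98.5% of an array's values matched the log2 ratio of 2 whole numbers up to 10000 within 1e-09, against 1.89 to 2.35% of the same values after a shift. Those numbers gave each spot's brightness, as a lower bound. Each array was corrected by loess on the feature's median brightness (span 0.4, 4 iterations, degree 1). The design had assumed normalised ratios.

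The 19981 features measured on each of the 8 arrays were named from the platform annotation, updated through RefSeq names of assembly ARS-UCD2.0 (30788 of 43803 features had 1 symbol), and averaged per symbol, to 13080 rows. Limma 3.58.1 in R 4.3.3 fitted 4 pairings and dye (3 residual and 3.72 prior degrees of freedom), two-sided, with Benjamini-Hochberg adjustment over all rows. In 10 simulated sets of 13080 rows with 200 changed, none of the changes of 1 was called, 10.5% of those of 2 and 61.2% of those of 4 on the log2 scale; the number of arrays limits the precision.

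Cow numbers come from the titles. Replicate numbers follow accession order and pair no arrays; both cows of the diet M arrays are on no other array. Arrays and gene lists were chosen with earlier results of these data known. Genes were named by rule: the 10 smallest p, the 12 highest and 12 lowest by the smaller of both cows, list members by p, the 6 smallest p between diets, and a neutrophil panel. CD3D, CD3E, CD3G and MS4A1 came from the defining markers. RSAD2, GNG11 and the brightness minimum of 64 for the shared genes were chosen after values were seen.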

Additional observations from a re-analysis of the deposited data

Results flagged for a closer look

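For 9 gene lists the medians had 1 sign on both arrays of diet M and the other sign on both arrays of diet S. The difference between the diets was not tested for lists, and each list is given by its median in diet M minus that in diet S, on the log2 scale. It was 1.14 for interferon-stimulated effectors and 1.00 for interferon receptors, Janus kinases, STATs and IRFs. It was 0.73 for glucocorticoid-responsive genes, 0.51 for insulin, IGF and energy sensing, 0.44 for pattern receptors, NF-kB and inflammasome, and 0.16 for eicosanoid synthesis and receptors. It was -0.50 for cytosolic ribosomal proteins, -0.48 for the respiratory chain and ATP synthase, and -0.28 for the proteasome. Some of the medians behind these lay close to 0: those of diet M were 0.04 and 0.19 for insulin signalling and 0.04 and 0.29 for eicosanoids. The arrays of diet S set different cows against each other, so a difference between animals cannot be told apart from one between days there.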

How the results depend on the processing

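Limma called 0 rows for the calving change in diet M and 0 for its difference from diet S in the 19 alternatives of the first and the 18 of the second, which cannot be had from the 2 arrays alone. The counts were also 0 with each array left out in turn. The smallest adjusted p over the alternatives was 0.568 for the change, without the array of cow 7821, and 0.209 for the difference. At an unadjusted p under 0.05 the change had 287 rows in the loop fit over all 8 arrays, 411 with the cow as replicate block (correlation 0.21), 448 from the 2 arrays alone, 903 without the array of cow 7821 and 519 without both arrays of cow 8041. It had 359 with the values as deposited, 730 with blanks allowed on the other arrays, 147 with array weights and 65 among brighter features. The difference between diets, with 546, had 832 in the loop fit, 1140 with the cow as replicate block, 1014 with blanks allowed, 1665 without both arrays of cow 8041 and 276 to 1157 with 1 array left out. Replicate numbers follow accession order and pair no arrays, so the block used the cow. The counts of rows at least 1 in size with 1 sign in both cows were 18 positive and 118 negative with the values as deposited, where the median of all rows was -0.289, and 52 and 52 with median centring. They were 269 and 186 with blanks allowed on the other arrays and 20 and 11 at a brightness of at least 64; with the brightest feature of a symbol they stayed within 1.5 times. The number of lists with 1 sign in both cows, 23 of 38, ran from 21 to 27. The interferon, neutrophil surface, granule, monocyte, platelet, T cell, eosinophil and clock medians over the means kept their sign in each setting with normalisation or feature choice changed. Without the array of cow 7973, 21 of the 38 list medians had the other sign, and 5 without that of cow 7821. Without the former the granule (-0.49), monocyte (-0.38), adhesion (-0.52), complement (-0.72), cytokine (-0.67), pattern receptor (-0.14) and glucocorticoid (-0.33) medians turned negative and the neutrophil surface median was 0.16. Without that of cow 7821 the T cell (0.14) and eosinophil (0.89) medians turned positive.

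Apart from single arrays left out, 102 of the 115 named genes kept their sign. It turned in the loop fit for CPB2 (-0.046), IFI27 (0.26), ELANE (-0.16), FKBP5 (0.059), HBA (0.073), with the cow as replicate block for IFI27 (0.18), ELANE (-0.13), FKBP5 (0.032), HBA (0.0066), and with the values as deposited for RSAD2 (-0.088), ELANE (-0.24), TLR4 (-0.20), CD14 (-0.15), CSF1R (-0.064). It turned with only brighter features for CD3D (0.16), FKBP5 (0.061), and with the brightest feature of a symbol for CD3D (0.16), CD79A (-0.0086), NAMPT (0.12), ITGB2 (-0.092), TLR4 (-0.087), FKBP5 (0.050). Leaving out each of the 8 arrays in turn moved the estimates of 40 of the 115 named genes across 0, in each case when the array of cow 7821 or of cow 7973 was left out: CCR3 (-5.20 to 1.13), GATA2 (-3.30 to 0.30), CEBPE (-3.83 to 1.95), FCER1A (-1.36 to 0.89), HRH4 (-3.25 to 0.055), CD8A (-2.26 to 0.043), GZMB (-2.28 to 0.14), LEF1 (-2.52 to 0.25), CD3D (-1.22 to 0.71), CD3G (-1.74 to 0.47), MS4A1 (-0.46 to 0.87), JCHAIN (-2.39 to 0.58), RSAD2 (-2.30 to 2.90), SOCS2 (-4.10 to 0.94). The same held for GNG11 (-0.36 to 3.36), IFI27 (-1.33 to 1.08), FCGR3A (-0.061 to 1.70), CXCR1 (-0.52 to 2.31), VNN2 (-0.27 to 1.79), NAMPT (-0.91 to 0.38), HP (-0.81 to 3.93), CATHL1 (-1.13 to 2.98), CATHL2 (-0.43 to 3.31), ELANE (-2.62 to 2.62), ITGAM (-0.40 to 1.26), ITGB2 (-0.46 to 1.11), C5AR1 (-0.17 to 2.57), TLR4 (-0.77 to 0.86). It held as well for IL1B (-0.21 to 1.21), UCP2 (-0.84 to 2.46), FOXO3 (-0.034 to 2.17), ALDOA (-0.55 to 1.99), GAPDH (-0.38 to 1.80), TSC22D3 (-0.33 to 1.32), FKBP5 (-0.17 to 0.041), ITGA2B (-0.081 to 1.83), HBB (-0.075 to 4.02), HBA (-0.78 to 0.29), CD14 (-0.66 to 0.97), CSF1R (-1.32 to 1.42). The cause was not tested. Each of these estimates rests on 1 cow and on a dye effect taken from other animals. The number of arrays limits the precision.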
